A study of Mus musculus with 10 samples.

Results

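The genes described are those of cholesterol synthesis, uptake, transport and efflux in the aorta of mice that lack Ptgds, which encodes an enzyme that makes prostaglandin D2 (L-PGDS). They were listed by name for their known roles, with earlier results of these data known, 31 genes in all. Of these, 28 had at least 1 Affymetrix probe set annotated with a single gene symbol, and all 28 passed the filter on low values, among 14321 genes tested. Array values of Acat2, Soat1 and Nr1h2 were not analysed here. Where several probe sets measured a gene, the brightest on average was used, and values are log2.

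The knockout group held 5 aortas of Ptgds-/- mice (replicates 1 to 5) and the wild type group 4 aortas (replicates 1, 3, 4 and 5). All were male mice labelled C57BL/6, kept on chow, and 1 array was made from the total RNA of each. Wild type replicate 2 was excluded by the submitters, per the labels. The labels give no age, litter, substrain, dissected segment or scan batch, and they do not describe how the Ptgds allele was made. The labels call the samples biological replicates.

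Cells build cholesterol from acetyl units through the mevalonate pathway, which ends in farnesyl diphosphate, and then through squalene and a series of sterol enzymes. Sterol shortage releases the SREBP transcription factors from the endoplasmic reticulum with the help of SCAP, against the retention by INSIG proteins, and SREBP-2 induces nearly all enzymes of the pathway. Sterol excess works the other way: oxysterols activate the liver X receptors (LXR), which induce the efflux pumps ABCA1 and ABCG1 and the gene of SREBP-1. In the artery wall these genes are known above all from foam cells, the lipid-laden macrophages and smooth muscle cells of atherosclerosis.

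Ptgds itself lay at 3.86, 3.92, 3.76, 3.67 and 4.40 on knockout replicates 1 to 5, against 9.11, 10.31, 8.79 and 8.68 on wild type replicates 1, 3, 4 and 5. The groups did not overlap, and the change of −5.30 (log2, SE 0.32) passed the adjusted threshold in limma (adjusted p 0.00059). Knockout values this close to the filter's log2 limit of 4 leave the exact size of the difference uncertain. Array medians ran from 5.88 to 5.95 in knockout and from 5.91 to 5.97 in wild type. Transcripts of neighbouring tissues differed between arrays: the mean of 10 sympathetic neuron markers was 9.35 on knockout replicate 1 and 11.12 on wild type replicate 3, against 4.88 to 7.88 on the other arrays, and 6 skeletal muscle markers averaged 10.01 on knockout replicate 3 against 4.44 to 5.04 elsewhere. The smooth muscle marker Myh11 lay between 13.82 and 13.89 on knockout arrays and between 13.67 and 13.88 on wild type arrays, so the labelled tissue was present on every array.

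Cholesterol genes lay mostly lower in the knockout aortas, by small amounts, and no single one passed the test across all genes. In bulk tissue such as whole aorta, fewer cells of a type and less RNA per cell cannot be told apart. Of the 28, 21 had a lower mean in the knockout and 7 a higher one, a lower share of 75.0% where 43.3% of all tested genes were lower. Members share arrays and regulators, so the 28 are not independent observations and such shares are descriptive. The median change was −0.12, against 0.027 over all tested genes. At an adjusted p of 0.05 (limma, Benjamini-Hochberg over 14321 genes), 0 members were called and the background was 0.0559%. An unadjusted p under 0.05 was reached by 9 members, where the background was 19.9%. Of these, 8 were lower (28.6% of 28, background 7.12%) and 1 was higher (3.57%, background 12.8%). In 0 of the 28 did the groups separate without overlap, where 6.76% of all tested genes did.

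By role, most enzymes and all transport genes were lower. Among 17 synthesis enzymes, 14 were lower and 3 higher in the knockout, with a median of −0.20 and changes from −0.96 to 0.24. The 3 transport genes had a median of −0.19, while the 5 regulators of SREBP were split, 2 lower and 3 higher (median 0.046). Of the 3 measured LXR and efflux genes, 2 were lower and 1 higher (median −0.092). When wild type replicate 1 was left out, 11 of the 17 enzymes were lower and their median was −0.097. The median was −0.13 when wild type replicate 3 was left out and −0.12 when knockout replicate 5 was. With array weights it was −0.037, and 11 of 17 were lower.

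**Figure D1:**
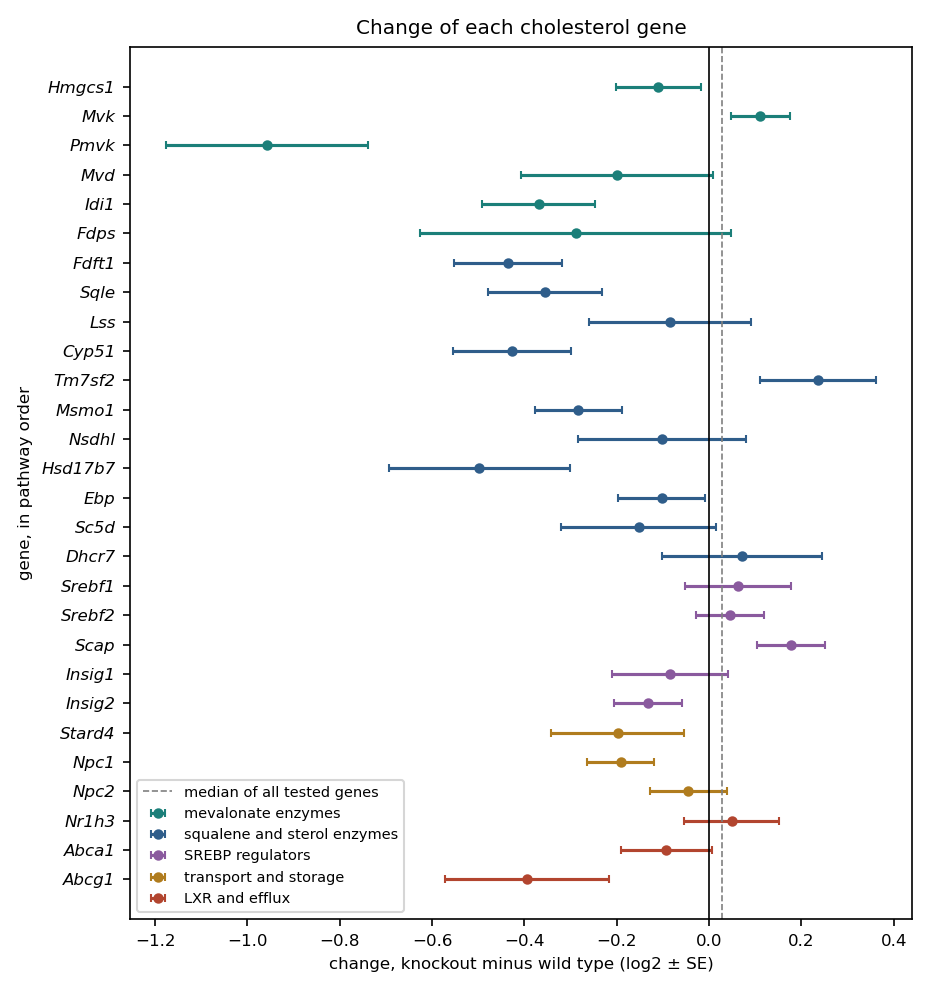
Change of the 28 cholesterol genes, knockout minus wild type (log2, horizontal axis), with genes down the page in pathway order and coloured by role. Points are limma estimates and bars their SE (5 knockout and 4 wild type arrays); the dashed line is the median of all tested genes, 0.027, and Pmvk stands farthest to the left at −0.96.

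Promoters of synthesis genes are shown because SREBP-2 acts on this group, the largest of the set. RefSeq promoter entries (GRCm38.p6) were found for 25 of the 31 listed genes, and the 250 bases before each annotated start were searched on both strands. The NF-Y box CCAAT, bound by a factor that acts beside SREBP at sterol promoters, was present in 20 of these 25 genes (80.0%), among them 14 of the 15 enzymes with an entry, and in 37.5% of 27025 genes searched the same way. The Sp1 box GGGCGG was present in 21 (84.0%), against 35.4% of all genes. Member promoters were richer in G and C, with a median of 62.2% against 52.4% over all promoters, and the part of base composition in these shares was not tested. The SREBP motif TCACNCCAC was found in 1 member, Hmgcs1 (4.0%, against 1.22% of all genes), and the looser TCACNCNAC in 2, Hmgcs1 and Nsdhl (8.0%, against 2.65%). The motif searches overlap, since every TCACNCCAC is also a TCACNCNAC. These counts are descriptions of letters in a short window and show no binding.

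The following 7 stretches run 5′ to 3′ along the gene's strand and end at the base before the annotated start; capitals mark the NF-Y box on either strand (CCAAT or ATTGG) and the SREBP motif in either spelling. Hmgcs1 and Nsdhl hold an SREBP motif in a spelling searched. Other spellings were not searched, so lower case does not mean that an SREBP site is absent. Pmvk, Idi1, Cyp51, Msmo1 and Hsd17b7 are the enzymes with an unadjusted p under 0.05 (limma) and a promoter entry. Pmvk has 2 entries, of which the one with an NF-Y box is printed.
Hmgcs1 (GRCm38.p6, chr13:119690101-119690350, plus strand): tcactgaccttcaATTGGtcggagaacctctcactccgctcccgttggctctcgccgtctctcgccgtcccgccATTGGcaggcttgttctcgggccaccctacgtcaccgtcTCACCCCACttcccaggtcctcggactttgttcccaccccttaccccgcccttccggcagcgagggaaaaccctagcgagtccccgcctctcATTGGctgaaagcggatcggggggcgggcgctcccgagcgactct
Nsdhl (GRCm38.p6, chrX:72918271-72918520, plus strand): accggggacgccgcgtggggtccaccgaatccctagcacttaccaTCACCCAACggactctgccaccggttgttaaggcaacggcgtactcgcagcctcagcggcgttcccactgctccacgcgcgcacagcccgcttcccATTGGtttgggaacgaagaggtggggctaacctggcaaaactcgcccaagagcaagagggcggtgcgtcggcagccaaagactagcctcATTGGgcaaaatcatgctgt
Pmvk (GRCm38.p6, chr3:89454291-89454540, plus strand): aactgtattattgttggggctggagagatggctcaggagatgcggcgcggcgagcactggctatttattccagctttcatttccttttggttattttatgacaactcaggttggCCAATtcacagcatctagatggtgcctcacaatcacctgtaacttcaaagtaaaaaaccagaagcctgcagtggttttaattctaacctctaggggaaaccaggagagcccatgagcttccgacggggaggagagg
Idi1 (GRCm38.p6, chr13:8885356-8885605, plus strand): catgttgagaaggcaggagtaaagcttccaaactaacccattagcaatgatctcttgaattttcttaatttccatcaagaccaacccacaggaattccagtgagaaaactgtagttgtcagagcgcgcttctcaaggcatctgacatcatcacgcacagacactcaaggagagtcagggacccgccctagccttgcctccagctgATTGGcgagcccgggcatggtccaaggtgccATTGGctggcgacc
Cyp51 (GRCm38.p6, chr5:4104698-4104947, minus strand): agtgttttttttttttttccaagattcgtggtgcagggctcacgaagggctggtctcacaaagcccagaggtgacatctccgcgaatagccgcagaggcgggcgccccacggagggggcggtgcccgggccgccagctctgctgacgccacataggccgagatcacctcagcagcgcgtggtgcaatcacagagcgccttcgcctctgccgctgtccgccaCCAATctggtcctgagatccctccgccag
Msmo1 (GRCm38.p6, chr8:64733579-64733828, minus strand): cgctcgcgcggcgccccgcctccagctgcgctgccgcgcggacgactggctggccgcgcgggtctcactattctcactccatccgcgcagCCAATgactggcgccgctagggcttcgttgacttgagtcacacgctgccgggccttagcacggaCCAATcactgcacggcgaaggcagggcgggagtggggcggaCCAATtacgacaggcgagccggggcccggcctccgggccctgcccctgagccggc
Hsd17b7 (GRCm38.p6, chr1:169969206-169969455, minus strand): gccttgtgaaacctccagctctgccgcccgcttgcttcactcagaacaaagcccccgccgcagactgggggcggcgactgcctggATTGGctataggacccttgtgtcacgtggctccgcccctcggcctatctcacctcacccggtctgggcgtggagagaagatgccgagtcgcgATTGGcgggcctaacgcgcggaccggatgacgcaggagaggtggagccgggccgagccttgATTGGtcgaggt
In Hmgcs1 the SREBP motif starts 137 bases before the start and lies between NF-Y boxes at 176 and 45 bases before it. Msmo1 and Hsd17b7 hold 3 NF-Y boxes each, Idi1 holds 2, and Cyp51 and the printed entry of Pmvk hold 1 each; the other entry of Pmvk holds 0. For the LXR response element of the direct repeat type, 1 exact consensus was searched on both strands. That spelling was found in 0 of the 25 members and in 4 of 27025 genes (0.0148%). A spelling this rare cannot show whether members hold the element. Other spellings of it were not searched, so the 0 does not mean that an LXR element is absent, in Abca1 and Srebf1 included.

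Among the mevalonate enzymes, Pmvk, which encodes phosphomevalonate kinase, differed most. Pmvk lay at 10.05, 10.41, 10.17, 10.83 and 10.04 on the 5 knockout arrays, against 10.66, 11.44, 11.52 and 11.42 on wild type replicates 1, 3, 4 and 5. Wild type replicate 1 fell among the knockout values, and the other 3 wild type arrays lay above every knockout array. The means were 10.30 ± 0.33 (SD, n = 5) in knockout and 11.26 ± 0.41 (SD, n = 4) in wild type, 1.94-fold lower in knockout (−0.96, SE 0.22), with an unadjusted p of 0.0017 and an adjusted p of 0.114 (limma). Without wild type replicate 1 the change was −1.16 and Pmvk passed the threshold (adjusted p 0.015). In that fit it was the 1 member called, where 2.10% of all tested genes were called lower and 5.24% higher. A single tested probe set measures Pmvk.

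Idi1 encodes the isomerase that makes dimethylallyl diphosphate for chain elongation. Its values were 8.80, 8.88, 8.57, 8.63 and 8.44 on knockout replicates 1 to 5, against 9.28, 9.06, 9.04 and 8.75 on wild type replicates 1, 3, 4 and 5. Wild type replicates 1, 3 and 4 stood above all knockout arrays and replicate 5 lay among them. The change of −0.37 (SE 0.12) had an unadjusted p of 0.015 and an adjusted p of 0.168 (limma), and a further probe set stood at −0.47 (SE 0.12).

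The other mevalonate enzymes had an unadjusted p over 0.05 on their brightest probe sets. Hmgcs1, the cytosolic HMG-CoA synthase of the pathway, stood at −0.11 (SE 0.092) on its brightest probe set. Its 4 further probe sets stood at −0.22 to −0.45, the lowest with an unadjusted p of 0.046. Fdps, the farnesyl diphosphate synthase, lay at 6.21, 5.98, 5.88, 5.71 and 5.09 in knockout and at 6.64, 6.72, 5.49 and 5.40 in wild type. Wild type replicates 1 and 3 of Fdps lay above every knockout array and wild type replicates 4 and 5 within the knockout range, and its change was −0.29 (SE 0.34). Mvd, mevalonate diphosphate decarboxylase, showed the same 2 levels in wild type (7.14 and 7.05 on replicates 1 and 3, 6.24 or less on replicates 4 and 5), with a range of 6.23 to 6.57 in knockout. Mvk, mevalonate kinase, had a higher mean in knockout, 0.11 (SE 0.064, adjusted p 0.360 in limma).

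Squalene and sterol enzymes followed. Fdft1, squalene synthase and the first enzyme committed to sterols, lay at 10.68, 10.58, 10.44, 11.05 and 10.62 on knockout arrays, against 10.97, 11.19, 11.19 and 11.08 on wild type arrays. Only knockout replicate 4 reached into the wild type range. The means were 10.67 ± 0.23 (SD, n = 5) in knockout and 11.11 ± 0.11 (SD, n = 4) in wild type, 1.35-fold lower in knockout, with an unadjusted p of 0.00485 and an adjusted p of 0.136 (limma). The brightest probe set of Fdft1 is of the type that can match other transcripts (suffix x_at); a further bright probe set stood at −0.38 (SE 0.12), and a dim probe set near the floor stood at 0.17 (SE 0.12).

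Cyp51, lanosterol demethylase, lay at 9.31, 9.21, 8.90, 9.48 and 8.93 in knockout, against 9.74, 9.63, 9.58 and 9.41 in wild type. Again knockout replicate 4 alone lay above the lowest wild type array. Its change was −0.43 (SE 0.13, unadjusted p 0.0087, adjusted p 0.148, limma), and its 2 further probe sets stood at −0.36 (SE 0.11) and −0.31 (SE 0.20). Sqle, squalene monooxygenase and a slow step of the pathway, lay at 8.48, 8.13, 8.14, 8.22 and 8.31 in knockout, against 8.53, 8.94, 8.65 and 8.34 in wild type. The overlap came from knockout replicate 1 and wild type replicate 5, and the change was −0.35 (SE 0.12, unadjusted p 0.018).

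Msmo1, the methyl sterol oxidase that acts with Nsdhl and Hsd17b7 to remove methyl groups from the sterol ring, lay at 8.82, 8.73, 8.64, 8.83 and 8.54 in knockout, against 8.91, 9.16, 9.10 and 8.80 in wild type. The groups met only at wild type replicate 5, and the change was −0.28 (SE 0.095, unadjusted p 0.015). Hsd17b7, the ketoreductase of that complex, lay at 9.21, 8.89, 8.63, 8.42 and 8.64 in knockout, against 9.27, 9.74, 9.11 and 8.91 in wild type. Knockout replicate 1 lay above wild type replicates 4 and 5, and the change was −0.50 (SE 0.20, unadjusted p 0.032, adjusted p 0.213, limma), with −0.48 (SE 0.19) on a further probe set. The brightest probe set of Hsd17b7 is also of the x_at type, and a dim probe set near the floor stood at 0.035 (SE 0.10). Nsdhl, the dehydrogenase between Msmo1 and Hsd17b7, did not follow: it stood at −0.10 (SE 0.18), and its wild type arrays spanned 0.98, from 9.01 to 9.99.

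**Figure D2:**
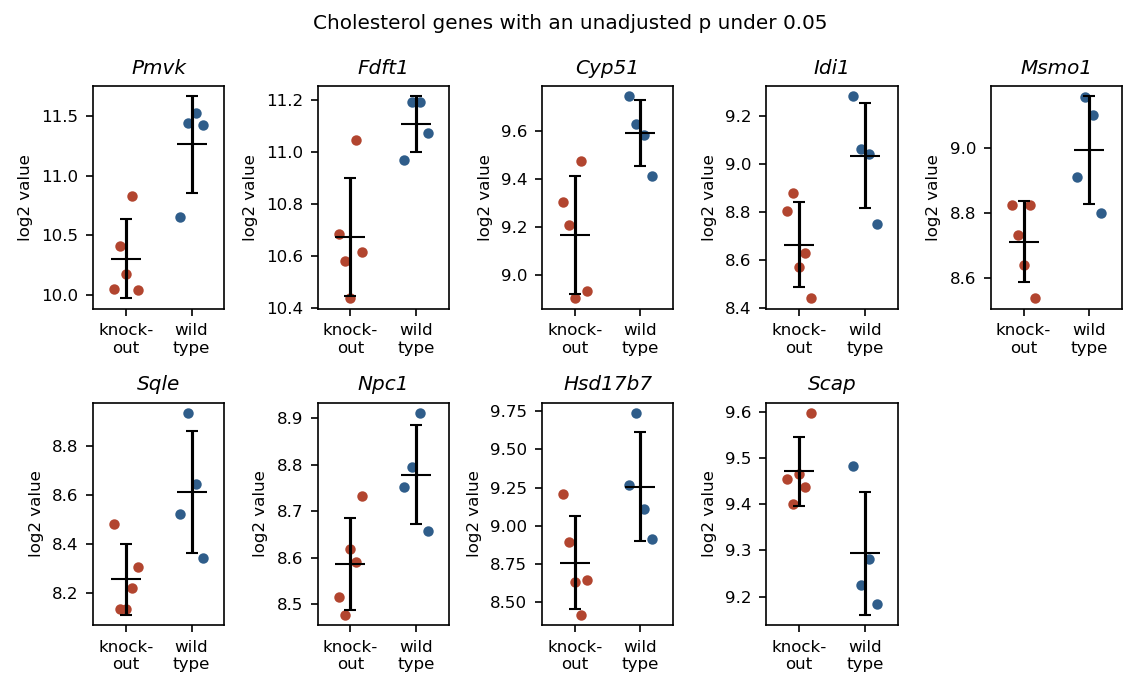
Log2 values of the 9 cholesterol genes with an unadjusted p under 0.05, ordered by that p. Each point is 1 array (5 knockout left, 4 wild type right), with the mean and SD in black; in every panel at least 1 array of a group lies within the range of the other.

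The remaining sterol enzymes had an unadjusted p over 0.05. Lss, lanosterol synthase, stood at −0.085 (SE 0.18), Ebp, a sterol isomerase, at −0.10 (SE 0.095), and Sc5d, a sterol desaturase, at −0.15 (SE 0.17). Dhcr7, which reduces 7-dehydrocholesterol in the last step of one branch, stood at 0.072 (SE 0.17) and Tm7sf2, a sterol reductase, at 0.24 (SE 0.13, unadjusted p 0.092). With single arrays left out, the change of Tm7sf2 was largest without wild type replicate 1, at 0.345 (adjusted p 0.090, limma). It was smallest without wild type replicate 5, at 0.125 (adjusted p 0.59, limma). For Lss and Sc5d the highest value of all 9 arrays was that of wild type replicate 1, 9.08 and 9.16. A further probe set of Lss stood at 0.21 (SE 0.13), opposite to the other 2.

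Wild type arrays differed among themselves. In 14 of the 17 the range over the 4 wild type arrays was larger than the difference of the group means, as it was for 91.6% of all tested genes; Pmvk, Fdft1 and Cyp51 were the exceptions. Wild type replicates 1 and 3 each held the highest value for 7 enzymes, and knockout replicate 5 held the lowest for 7 and wild type replicate 5 for 4. Of the 17 enzymes, wild type replicates 1 and 3 exceeded the knockout mean in 16 and 14, while wild type replicates 4 and 5 did so in 9 and 8. The mean of the 17 enzymes was 8.85, 8.83, 8.69, 8.81 and 8.59 on the knockout arrays, against 9.15, 9.17, 8.87 and 8.75 on the wild type arrays. Wild type replicate 5 lay within the knockout range, and wild type replicate 4 just above it.

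**Figure D3:**
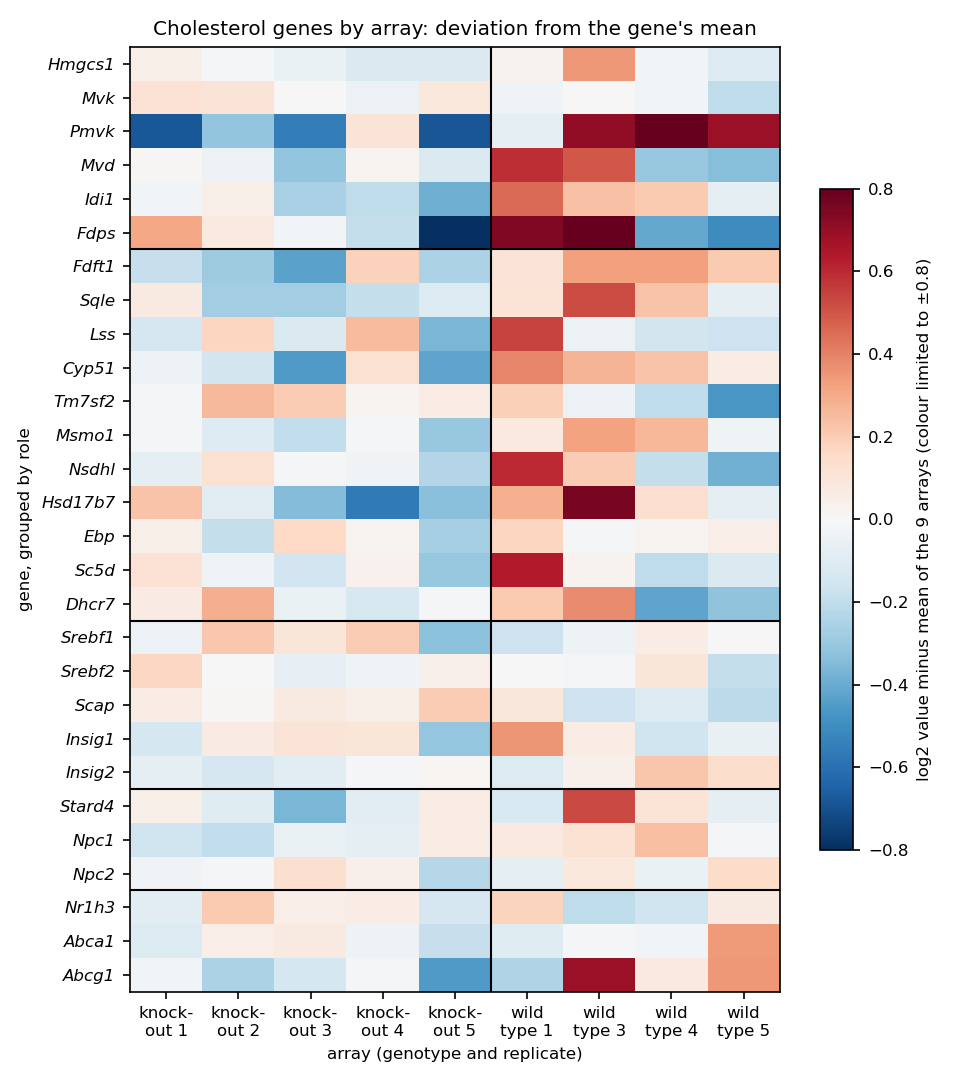
Deviation of each cholesterol gene from its mean over the 9 arrays (log2, colour limited to 0.8 either way), with knockout arrays left of the vertical line and wild type arrays right of it, and genes grouped by role between horizontal lines. Wild type replicates 1 and 3 hold the highest value for 7 enzymes each in the first 2 blocks, and knockout replicate 5 holds the lowest value for 7.

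The regulators of SREBP showed no shared direction. Srebf2, which encodes SREBP-2, lay at 9.53, 9.36, 9.30, 9.33 and 9.41 in knockout, against 9.36, 9.36, 9.47 and 9.18 in wild type. Srebf1, which encodes SREBP-1, lay at 10.97, 11.23, 11.11, 11.22 and 10.69 in knockout, against 10.85, 10.97, 11.08 and 11.02 in wild type. Both overlapped throughout, with changes of 0.046 (SE 0.074) and 0.063 (SE 0.11), and a further probe set of Srebf2 stood on the other side of 0, at −0.16 (SE 0.088). Scap, the sterol-sensing escort of SREBP, was the 1 member higher at an unadjusted p under 0.05. Its values were 9.45, 9.40, 9.46, 9.44 and 9.60 in knockout, against 9.48, 9.23, 9.28 and 9.18 in wild type, a change of 0.18 (SE 0.074, unadjusted p 0.040, adjusted p 0.231, limma). Wild type replicate 1 was the 1 array of that group inside the knockout range.

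Insig1 and Insig2, which hold SCAP and SREBP in the endoplasmic reticulum, were compared because Insig1 is itself an SREBP target. Insig1 lay at 12.39, 12.60, 12.64, 12.63 and 12.22 in knockout, against 12.89, 12.59, 12.38 and 12.48 in wild type, a change of −0.085 (SE 0.13). Insig2 lay at 10.69, 10.63, 10.68, 10.75 and 10.78 in knockout, against 10.65, 10.80, 10.99 and 10.91 in wild type, a change of −0.13 (SE 0.074). Wild type replicates 3, 4 and 5 of Insig2 exceeded every knockout array. Its further probe sets stood at −0.15 (SE 0.082) and −0.36 (SE 0.14, unadjusted p 0.028).

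Transport genes were lower by small amounts. Npc1, the membrane protein that exports cholesterol from lysosomes, lay at 8.51, 8.48, 8.62, 8.59 and 8.73 in knockout, against 8.75, 8.79, 8.91 and 8.66 in wild type. Knockout replicate 5 and wild type replicate 5 crossed, and the change was −0.19 (SE 0.073, unadjusted p 0.028, adjusted p 0.204, limma). Npc2, its soluble lysosomal partner, stood at −0.045 (SE 0.083). Stard4, a carrier of sterols between membranes and an SREBP target, stood at −0.20 (SE 0.14), with its highest value, 8.79, on wild type replicate 3.

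Among LXR and efflux genes, Nr1h3 and Abca1 overlapped widely and Abcg1 through 1 array. Nr1h3, which encodes LXRα, lay at 7.09, 7.39, 7.23, 7.24 and 7.04 in knockout, against 7.36, 6.97, 7.02 and 7.25 in wild type. Abca1, the pump that loads cholesterol onto apolipoprotein A-I, lay at 11.19, 11.35, 11.37, 11.26 and 11.12 in knockout, against 11.20, 11.29, 11.27 and 11.64 in wild type. Their changes were 0.049 (SE 0.10) and −0.092 (SE 0.098). Abcg1, the pump that exports cholesterol to high-density lipoprotein, lay at 8.82, 8.59, 8.70, 8.83 and 8.39 in knockout, against 8.61, 9.53, 8.92 and 9.19 in wild type. Wild type replicates 3, 4 and 5 of Abcg1 exceeded all knockout arrays, and wild type replicate 1 was below 3 of them. Its change of −0.40 (SE 0.18) had an unadjusted p of 0.053 and an adjusted p of 0.258 (limma). Leaving out wild type replicate 3 gave −0.24, and the adipocyte markers as a covariate gave −0.21.

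**Figure D4:**
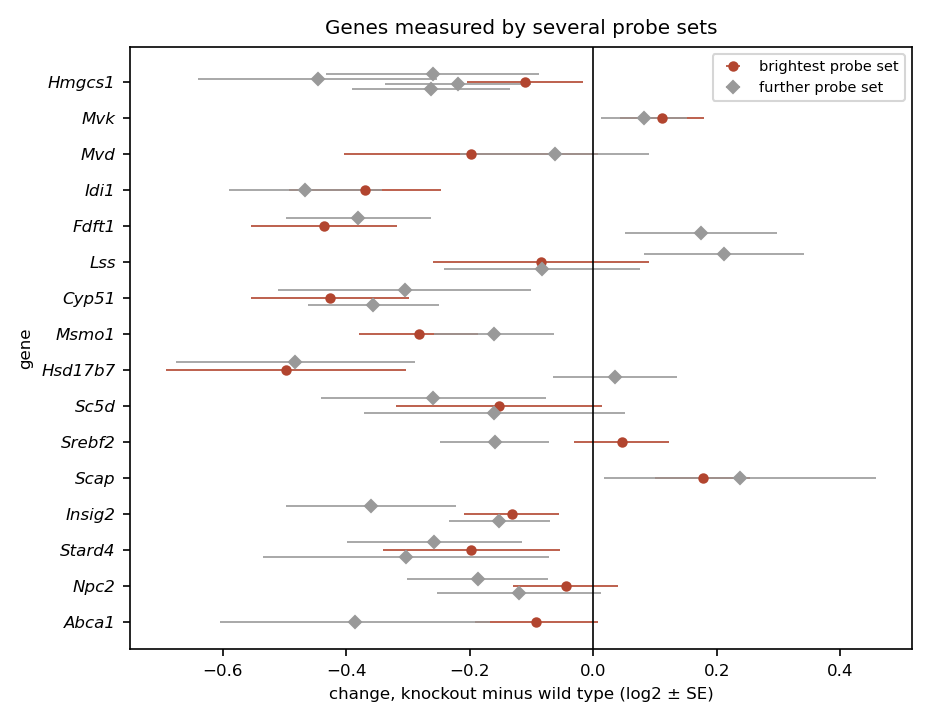
Change, knockout minus wild type (log2, with SE), of every tested probe set for the 16 cholesterol genes with more than 1, with the brightest probe set in red and the further ones in grey. In 12 of the 16 genes all probe sets share 1 sign; Lss, Srebf2, Fdft1 and Hsd17b7 do not.

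Over the further probe sets, 22 of 27 were lower in knockout, where 47.3% of all tested probe sets were. At an unadjusted p under 0.05, 6 were lower (background 8.38%) and 0 higher (background 10.5%), and 0 passed the adjusted threshold in limma. In 0 of them did the groups separate (background 2.62% lower and 3.80% higher). Probe sets of 1 gene share its RNA and are not independent measurements.

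The set was gathered to compare SREBP targets with LXR targets. The 19 measured SREBP targets (the enzymes with Insig1 and Stard4) had a median change of −0.20, and the 3 LXR targets (Abca1, Abcg1 and Srebf1) one of −0.092, a difference of −0.11. The mean of the SREBP targets minus that of the LXR targets was −1.32, −1.40, −1.54, −1.45 and −1.30 on the knockout arrays, against −0.92, −1.27, −1.39 and −1.70 on wild type replicates 1, 3, 4 and 5. The wild type values spanned more than the knockout values on both sides, so the genotypes were not set apart by this difference. Its sign turned without wild type replicate 1, where the difference of medians was 0.045.

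Other genes of the pathway, from lists chosen by role, gave 0 calls in limma at the adjusted threshold. Of 11 measured genes of fatty acid synthesis under SREBP-1, 5 were higher and 6 lower, with a median of −0.013. Fads1, a fatty acid desaturase, lay at 10.51, 10.45, 10.35, 10.40 and 10.53 in knockout, against 10.34, 10.19, 10.32 and 10.10 in wild type. These groups did not overlap (background 4.59% higher), and the change was 0.21 (SE 0.068, unadjusted p 0.014, adjusted p 0.164, limma). Gpam, an acyltransferase of glycerolipid synthesis, stood at −0.096 (SE 0.068).

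Among 9 further genes of sterol uptake and transport, 4 were higher and 5 lower (median −0.012). Lipa, the lysosomal acid lipase that frees cholesterol from its esters, lay at 10.44, 10.59, 10.64, 10.43 and 10.40 in knockout, against 10.71, 11.01, 10.66 and 10.67 in wild type. No knockout array reached the lowest wild type array (background 2.16% lower), and the change was −0.26 (SE 0.089, unadjusted p 0.016, adjusted p 0.171, limma). Stard3, which tethers late endosomes to the endoplasmic reticulum, stood at 0.30 (SE 0.096, unadjusted p 0.013, adjusted p 0.162, limma).

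In the 5 genes of SREBP processing the median was −0.0023, with the site-1 protease gene Mbtps1 at 0.078 (SE 0.063) and the site-2 protease gene Mbtps2 at 0.080 (SE 0.065). Among 4 further LXR targets, 3 were lower (median −0.065), with Smpdl3a at −0.096 (SE 0.057) and Mylip, a ligase for lipoprotein receptors, at −0.22 (SE 0.18). The 5 genes of oxysterol synthesis and LXR partners had a median of 0.13, with the retinoid X receptor genes Rxrb at 0.16 (SE 0.074) and Rxra at 0.13 (SE 0.081). All 3 further synthesis and prenyl enzymes were lower (median −0.058), among them Acat1, the mitochondrial acetoacetyl-CoA thiolase, at −0.10 (SE 0.076) and Lbr, the lamin B receptor with sterol reductase activity, at −0.058 (SE 0.063).

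Markers of other cell types differed between the groups in both directions. All 9 tested adipocyte markers were lower in knockout. Their log2 values, summed over the markers, ran from 89.9 to 98.4 on knockout arrays and from 96.2 to 100.1 on wild type arrays. All 8 brown adipocyte markers were lower, with sums of 81.9 to 88.2 on knockout and 86.8 to 93.0 on wild type arrays. At an unadjusted p under 0.05 in limma, 3 adipocyte markers (33.3%) and 2 brown adipocyte markers (25.0%) were lower (background 7.12%). In both lists 0 were higher at that p. Knockout replicate 5 had the lowest mean of the adipocyte markers (9.99), the brown markers (10.24) and the synthesis enzymes (8.59). The defining markers Adipoq and Ucp1 were high on every array, at 12.24 or more and 12.41 or more. With the adipocyte markers as a covariate the median change of the enzymes was −0.18, and 14 of 17 were lower. The brown adipocyte markers were not used as a covariate. Their mean was highest on wild type replicates 3 and 1 (11.62 and 11.30), where the enzyme mean was also highest (9.17 and 9.15). The part of fat cells in the enzyme values was not tested.

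The sympathetic neuron markers, all 10 lower, had summed log2 values of 49.8 to 93.5 on knockout and 48.8 to 111.2 on wild type arrays, and Th was near or below the floor on several arrays (3.31 at the lowest). With these markers as a covariate the enzyme median was −0.12. All 9 macrophage markers were lower as well, with summed log2 values of 79.4 to 81.3 on knockout and 77.6 to 87.3 on wild type arrays. Of these 9, 1 had an unadjusted p under 0.05 in limma (11.1%, background 7.12% lower). Of 9 endothelial markers 8 were lower (81.3 to 84.1 on knockout, 82.5 to 86.7 on wild type arrays). At an unadjusted p under 0.05 in limma, 4 of the 9 were lower (44.4%, background 7.12%) and 0 higher. The 4 included the defining marker Cdh5, at −0.34 (SE 0.090). In 1 of the 9, Esam, the groups did not overlap (background 2.16% lower). Cardiomyocyte markers were lower in 5 of 6 (39.2 to 50.5 on knockout, 39.1 to 55.9 on wild type arrays). Other lists were higher or split. All 6 skeletal muscle markers were higher (26.8 to 60.1 on knockout, 26.7 to 29.3 on wild type arrays), with knockout replicate 3 far above the rest. Of 8 smooth muscle markers 6 were higher (100.6 to 101.2 on knockout, 99.4 to 101.1 on wild type arrays). At an unadjusted p under 0.05 in limma, 3 of the 8 were higher (37.5%, background 12.8%). At that p 1 was lower, Myocd at −0.24 (12.5%, background 7.12%). Schwann cell markers were higher in 3 and lower in 4 (58.5 to 65.1 on knockout, 59.1 to 68.9 on wild type arrays), and fibroblast markers higher in 2 and lower in 4 (73.1 to 75.0 on knockout, 73.3 to 75.9 on wild type arrays). No marker of these lists passed the adjusted threshold in limma. The part of these other cell types in the enzyme values was not tested.

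**Figure D5:**
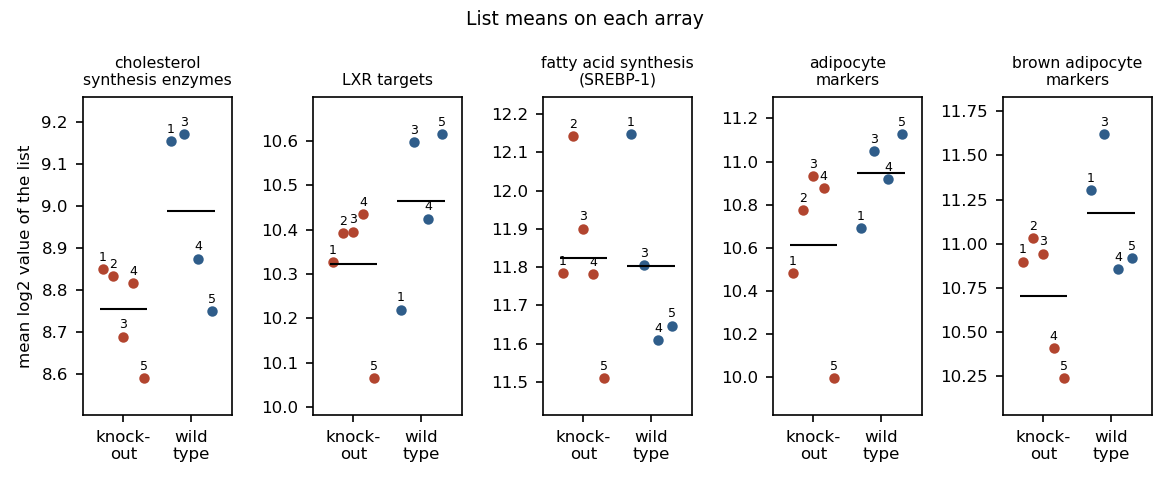
Mean log2 value of each list on each array: cholesterol synthesis enzymes, LXR targets, fatty acid synthesis genes under SREBP-1, adipocyte markers and brown adipocyte markers. Points are arrays numbered by replicate (knockout left, wild type right) and bars are group means; knockout replicate 5 is lowest in all 5 panels, and the groups overlap in each.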

How the data were processed

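RNA of 9 mouse aortas was measured on 1-colour Affymetrix arrays of 45101 probe sets. The authors deposited 1 value per probe set from GCRMA (background correction, normalization and summary in one method), as the submitters' processing notes name it. The deposited values were read as log2, an inference from their range (1.75 to 14.81 over all arrays, with array medians of 5.88 to 5.97); the version and the other steps are not given in the sources used here.

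Of the probe sets, 34945 carried 1 gene symbol and were kept, while 932 with several and 9211 without one were not used. Tests covered those exceeding a log2 of 4 on 4 arrays or more, and the brightest stood for its gene. Knockout was set against wild type by lmFit and eBayes of limma (version 3.58.1, R 4.3.3) with no covariate and p-values adjusted by Benjamini-Hochberg over 14321 genes. The number of arrays limits the precision. The procedure was tested on simulated data, with changes larger than that of any member and no variation shared between genes. That test does not cover changes as small as those of the members.

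The members and lists were chosen with earlier results of these data known. All members are named; values on every array are given for members with an unadjusted p under 0.05, without overlap, or central to SREBP and LXR, and each other pathway list is given with its 2 genes of smallest p. Alternatives covered normalization, filter, choice of probe set, variance model, array weights, marker covariates, the replicate number as a block and each array left out; leaving out both arrays with most neuron transcripts was added after seeing the data.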

Additional observations from a re-analysis of the deposited data

Results flagged for a closer look

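Over 68 groups of arrays (28 genes and 6 list means, in 2 genotypes), 3 held an array farther from the others than Dixon's critical value, where chance gives about 1 in 20. All 3 lay in the wild type group. Pmvk on wild type replicate 1 was low, at 10.66 against 11.42 on the nearest array (gap over range 0.881). Lss on wild type replicate 1 was high, at 9.08 against 8.49 (0.832). Mvk on wild type replicate 5 was low, at 7.51 against 7.68 (0.851).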

How the results depend on the processing

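The count of genes called over all genes was 8; it was 19 with a floor of 6, 33 with trend and robust options, 73 with array weights, 2 with the adipocyte covariate, 0 with the replicate block (2847 at an unadjusted p under 0.05 in the unblocked limma fit), 3 without the 2 arrays with most neuron transcripts, and 2 to 1051 with single arrays left out, the highest without wild type replicate 1. Members called were 0 in these fits except 1 without wild type replicate 1 (Pmvk), and 9 at an unadjusted p under 0.05. The enzyme median was −0.20 (range −0.35 without wild type replicate 5 to −0.097 without wild type replicate 1), and −0.037 with array weights, as was that of the SREBP targets (−0.26 to −0.097 with single arrays left out), where wild type replicates 1 and 3 had the lowest weights (0.504 and 0.446). The LXR median was −0.39 with the probe set of largest variance and ran from −0.14 to 0.0031 with single arrays left out, and the SREBP minus LXR difference from −0.26 to 0.045. That difference also turned to 0.025 with the mean of a gene's probe sets, 0.10 with the probe set of largest variance, 0.085 with array weights and 0.014 with the neuron covariate. Beside single arrays left out, 323 of 335 member values kept their sign and their side of the threshold. The exceptions were of sign: Abca1 0.018, Insig1 0.0048, Npc2 0.074 and Srebf2 −0.0082 with the adipocyte covariate; Fdps 0.091, Insig1 0.013, Lss 0.023 and Nsdhl 0.074 with array weights; Lss 0.015 and Srebf2 −0.057 with the mean of probe sets; Srebf2 −0.16 with the largest variance; and Nr1h3 −0.011 with the neuron covariate. With single arrays left out, signs turned for Abca1 (−0.14 to 0.0031), Dhcr7 (−0.056 to 0.21), Insig1 (−0.16 to 0.018), Lss (−0.16 to 0.080), Npc2 (−0.082 to 0.0073), Nr1h3 (−0.011 to 0.12), Nsdhl (−0.25 to 0.078), Sc5d (−0.25 to 0.031) and Srebf2 (−0.0080 to 0.088). The cause of these changes was not tested. The replicate numbers are not said to pair samples, and the deviations of same-numbered arrays correlated at −0.36, −0.15, 0.060 and 0.21, so the block is given only here; with it the enzyme median was −0.21.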
